A study of Mus musculus with 42 samples.

Results

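The 10 genes described here, S100a5, Kirrel2, Kirrel3, Pcdh10, Sema7a, Nrp1, Plxna1, Efna5, Epha5 and Plxnc1, are known from other work for tying the activity or the receptor identity of olfactory sensory neurons to the wiring of their axons. They were taken by symbol from the 44674 genes of the count table, and all 10 were among the 21168 genes with enough reads to be tested. RNA was taken from male C57BL/6NCrl mice of 8 to 12 weeks, from the main olfactory epithelium, the sheet of the nose that holds the sensory neurons and their supporting cells. Mice were given 1 h of no odour (No Odour, 5 pools), of the odour of normal chow (NCD, 6 pools), of a bacon-flavoured diet (Bacon, 5 pools) or of a lard-based high-fat diet (HFD, 5 pools). Each of the 21 pools combined 4 epithelia and gave a pair of libraries. The first, the pulldown, was RNA on ribosomes captured with an antibody to phosphorylated ribosomal protein S6, which marks recently active cells. The second, the input, was RNA of the same epithelia before capture. No group carried a transgene or a mutation, so no genetic tag limited the capture to a chosen cell type. Both libraries were thus bulk RNA that could come from any cell type of the epithelium, in shares that were not measured. In such bulk RNA, fewer cells of a type and less RNA per cell cannot be told apart.

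A sensory neuron of the mouse nose expresses a single odorant receptor, and the axons of all neurons with that receptor converge on the same few glomeruli of the olfactory bulb. Part of this sorting depends on the receptor's own signal through cyclic AMP and on odour-evoked activity, which set the level of surface molecules on the axon. S100a5 encodes a calcium-binding protein whose transcript serves as a readout of sensory neuron activity. Kirrel2 and Kirrel3 encode homophilic adhesion proteins carried by complementary sets of axons, Pcdh10 an activity-dependent protocadherin, and Efna5 and Epha5 the repulsive ligand ephrin-A5 and its receptor EphA5. Nrp1 encodes neuropilin 1, the semaphorin-binding receptor subunit that sets the anterior to posterior position of axons, and Plxna1 its signalling partner plexin A1. Sema7a encodes a membrane-anchored semaphorin of sensory axons, and Plxnc1 its receptor plexin C1.

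Read totals ranged from 25392651 to 36738192 in the pulldown libraries and from 24839380 to 36781440 in the input. Levels below are CPM, the usual scaling of counts to library size, with library sizes adjusted by the trimmed mean of M values (TMM), and the pulldown ratio is pulldown CPM divided by input CPM of the same pool. The share of reads from ribosomal RNA genes differed with exposure. It was 14.6 to 28.5% without odour against 10.7 to 21.7% with any odour in the pulldown, and 21.7 to 32.2% against 9.75 to 21.9% in the input. The input library of No Odour pool 4 and the pulldown library of Bacon pool 1 stood apart from the rest of their groups, and the change of each gene in the pulldown ratio is given with and without these pools. The summed level of 8 markers of mature sensory neurons, among them Omp and Cnga2, was 1.25 times as high in the pulldown with odour as without (adjusted p = 0.00195, exact permutation test, 16 against 5 pools). In the input it was 1.02 times as high (adjusted p = 0.717, exact permutation test). On plain library totals the input sum was 1.22 times as high (adjusted p = 0.00108, exact permutation test), so the input result rests on the scaling. All 8 markers were detected, and their summed level of 15140 to 19185 CPM in the No Odour input exceeded the 4103 to 5845 CPM of 5 supporting cell markers there.

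Sequence upstream of the transcription start is shown for S100a5 and Pcdh10, the pair of genes with the largest changes below, as RefSeq gives it in build GRCm38.p6. The S100a5 window is chr3:90608272-90608521 and the Pcdh10 window chr3:45378148-45378397, both on the plus strand. The 250 bases read 5′ to 3′ up to the base before the start, with CpG dinucleotides in capitals.
S100a5: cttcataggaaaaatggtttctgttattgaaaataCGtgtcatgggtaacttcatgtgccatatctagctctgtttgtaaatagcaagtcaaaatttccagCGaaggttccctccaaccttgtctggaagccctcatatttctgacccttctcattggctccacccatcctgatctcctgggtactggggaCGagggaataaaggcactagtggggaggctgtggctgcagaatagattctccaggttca
Pcdh10: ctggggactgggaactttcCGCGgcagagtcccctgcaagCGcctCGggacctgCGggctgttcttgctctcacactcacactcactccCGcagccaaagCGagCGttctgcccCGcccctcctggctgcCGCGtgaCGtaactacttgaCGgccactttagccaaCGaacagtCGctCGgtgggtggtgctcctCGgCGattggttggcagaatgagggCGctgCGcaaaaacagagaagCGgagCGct
The S100a5 window held 3 CpG dinucleotides and the Pcdh10 window 22, against a median of 6 over 32851 promoters of all genes. RefSeq windows were found for 8 of the 10 genes, all but Kirrel3 and Plxna1. Within 250 bases before and 50 after the start, none of the 8 matched TGACGTCA (the cyclic AMP response element, in 1.79% of all promoters) or TGANTCA (the AP-1 site bound by Fos and Jun proteins, 7.81%), with both strands searched. The letters CCCNNGGGA (Ebf factors, 6.56%) matched in Kirrel2, and TAATTA (homeodomain factors, 5.29%) in Epha5. The short form TGACG, looked up after these sequences had been read and contained in TGACGTCA, matched in Pcdh10 and Sema7a and in 20.8% of all promoters.

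Without odour, the 10 genes spanned a wide range of levels. Per kilobase of the longest coding transcript, S100a5 stood at 4353 ± 1395 CPM per kb in the input (SD, n = 5), far above Kirrel2 at 29.0 ± 6.88 and Sema7a at 23.1 ± 1.89, which overlapped each other. Plxna1 followed at 12.5 ± 3.01 CPM per kb, Efna5 at 9.89 ± 2.44, Nrp1 at 6.56 ± 0.773, Kirrel3 at 5.77 ± 0.481 and Epha5 at 5.29 ± 0.322. Plxna1 and Efna5 overlapped within 1 SD, as did Nrp1 and Kirrel3, and Kirrel3 and Epha5. Pcdh10 at 1.83 ± 0.358 and Plxnc1 at 0.496 ± 0.125 CPM per kb came last. The pulldown gave the same order, from 6814 ± 814 for S100a5 to 0.675 ± 0.130 for Plxnc1. Over all annotated exons instead of the longest transcript, Nrp1 came after Kirrel3 in the input, at 2.41 against 3.71 CPM per kb.

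The first comparison asked which transcripts were enriched on phosphorylated ribosomes in mice that had smelled nothing. All 10 genes were higher in the pulldown than in the input, and 8 passed the threshold used throughout, an adjusted p under 0.001 in edgeR's quasi-likelihood test over all genes. In this comparison 19.8% of all tested genes were higher at that threshold. The median log2 difference was 0.62 for the 10 genes and 0.01 for all genes. Pcdh10 was the most enriched, at 3.29-fold (log2 1.72, SE 0.11, adjusted p = 1.03e-11), followed by Kirrel2 at 2.21-fold (log2 1.14, SE 0.08, adjusted p = 9.41e-12). Plxna1 was enriched 1.75-fold, S100a5 1.61-fold, Nrp1 1.56-fold, Kirrel3 1.52-fold, Epha5 1.42-fold and Sema7a 1.39-fold. Efna5 (1.38-fold, adjusted p = 0.00257) and Plxnc1 (1.37-fold, adjusted p = 0.00953) missed the threshold. Without No Odour pool 4, the log2 enrichment of Efna5 went from 0.46 to 0.23 (adjusted p = 0.0132) and that of Plxnc1 from 0.45 to 0.29 (adjusted p = 0.0931). Without both that pool and Bacon pool 1, it was 1.56 for Pcdh10, 1.07 for Kirrel2, 0.79 for S100a5, 0.62 for Plxna1, 0.61 for Kirrel3, 0.54 for Nrp1, 0.45 for Epha5 and 0.41 for Sema7a. The count was 8 with any single pool left out. It was 5 (8.65% of all genes) when a term for the replicate number within the pulldown was added to the fit, which cost S100a5, Kirrel3 and Sema7a their calls.

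Odour exposure was then compared with no odour on 3 measures: the pulldown ratio, the input alone and the pulldown alone. The 3 odours share the same 5 No Odour pools, so the comparisons are not independent of each other. In the pulldown ratio, 0 of the 10 genes passed with NCD odour (background 0.524% of all genes), 1 with Bacon odour (3.78%) and 0 with HFD odour (1.22%). At an unadjusted p under 0.05, 6 of the 10 were reached with NCD odour and 4 with HFD odour. With Bacon odour, S100a5, Pcdh10, Nrp1, Plxna1 and Plxnc1 were reached. The share of all genes at that unadjusted level was not taken, here or below. It was at least 13.1% with NCD, 22.5% with Bacon and 15.7% with HFD odour, the shares at an adjusted p under 0.05. At the 0.001 threshold, DESeq2, which passed more of all genes, gave 1, 2 and 2 (3.52%, 10.5% and 5.21%), and DESeq2 on pulldown divided by input also gave 1, 2 and 2 (3.82%, 10.7% and 6.11%). In the input, 2 genes passed with NCD odour (0.998%), 7 with Bacon odour (13.7%) and 3 with HFD odour (0.963%), where DESeq2 gave 4, 7 and 4 (6.68%, 21.1% and 6.78%). All of these were higher with odour except S100a5 with Bacon, where 5.41% of all genes passed as higher and 8.34% as lower. The median log2 change of the 10 genes in the input was 0.28, 0.42 and 0.29 for the NCD, Bacon and HFD odours, against -0.02, 0.01 and -0.01 for all genes. In the pulldown ratio the corresponding medians were -0.00, -0.08 and 0.01, against -0.00, 0.00 and -0.01. In the pulldown libraries alone, 2 genes passed with NCD odour (4.11%), 3 with Bacon odour (4.22%) and 2 with HFD odour (5.0%), all of them higher. At an adjusted p under 0.05, 3, 3 and 2 of the 10 genes were reached in the ratio (13.1%, 22.5% and 15.7% of all genes) and 6, 8 and 7 in the input (23.5%, 39.8% and 21.7%). Without No Odour pool 4 and Bacon pool 1, 0, 2 and 1 passed at 0.001 in the ratio (1.55%, 6.59% and 2.76%) and 2, 5 and 4 in the input (0.934%, 8.19% and 1.13%). With only the compared groups in the fit, 1, 0 and 0 passed in the ratio (0.918%, 0.127% and 0.183%) and 0, 1 and 0 in the input (0.149%, 3.86% and 0.0309%).

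The groups were also compared by whether any pools overlapped. In the input, all NCD pools lay above all No Odour pools for 5 of the 10 genes (5.84% of all genes), all Bacon pools for 7 (13.7%) and all HFD pools for 4 (5.22%). Kirrel2, Pcdh10 and Plxna1 were among them with each odour. For S100a5 all Bacon pools lay below (13.7%). In the pulldown, the odour pools were clear of the No Odour pools for 3 genes with NCD (6.05%), 2 with Bacon (3.34%) and 5 with HFD odour (8.83%), of which Efna5 was common to all.

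**Figure D1:**
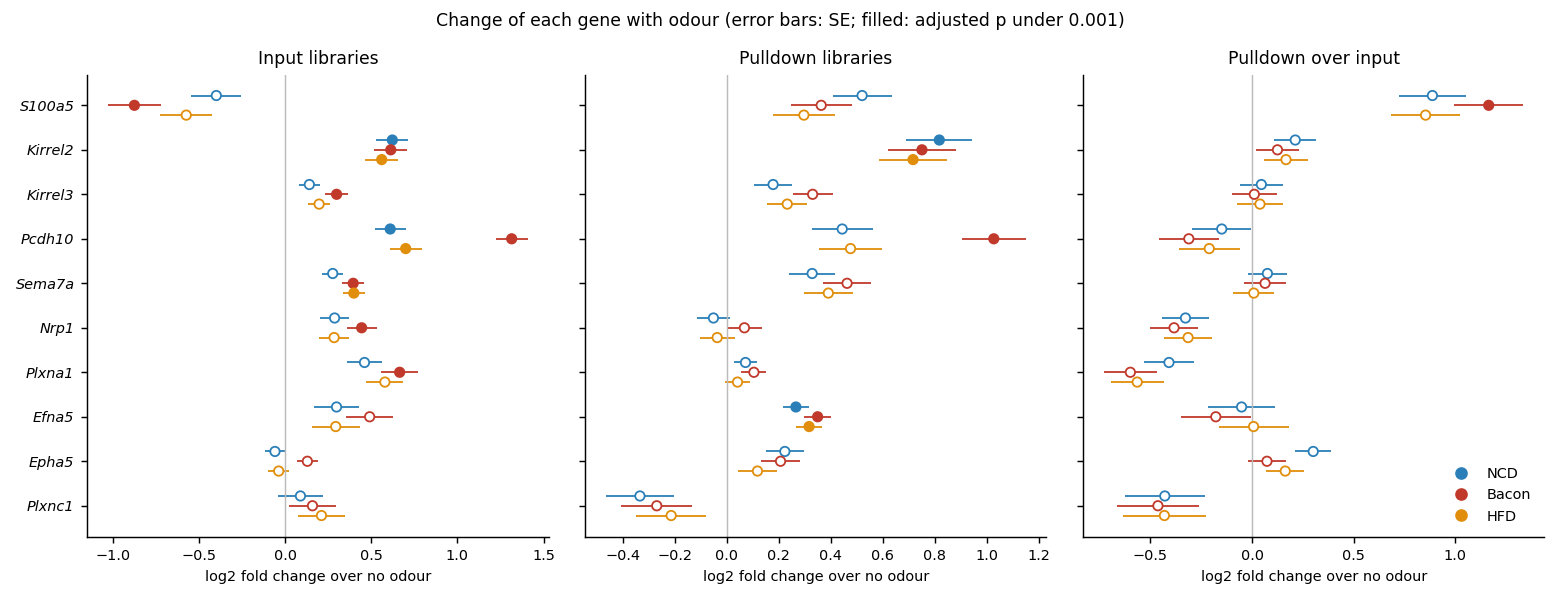
Log2 fold change of each of the 10 genes over no odour in the input libraries, the pulldown libraries and the pulldown ratio, for the NCD, Bacon and HFD odours; error bars are SE and filled points have an adjusted p under 0.001. Kirrel2 and Pcdh10 sit right of zero in the input and pulldown panels and near zero in the ratio panel, while S100a5 sits left of zero in the input and right of it in the ratio.

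S100a5 was the only gene of the 10 that passed in the pulldown ratio. Its ratios were 1.75, 1.61, 1.77, 1.20 and 1.80 in the No Odour pools 1, 2, 3, 4 and 6. They ran from 2.59 to 3.24 with a median of 3.04 in the 6 NCD pools, were 2.46, 4.42, 4.65, 3.26 and 3.70 in the Bacon pools, and were 3.02, 4.35, 3.05, 2.56 and 2.04 in the HFD pools. Every odour pool lay above every No Odour pool, a pattern that 5.73% of all genes showed for NCD, 6.45% for Bacon and 5.04% for HFD. The fitted increase was 2.24-fold with Bacon odour (log2 1.16, SE 0.17, adjusted p = 9.08e-05), and it passed. With NCD odour it was 1.85-fold (log2 0.89, SE 0.16, adjusted p = 0.00162) and with HFD odour 1.81-fold (log2 0.85, SE 0.17, adjusted p = 0.00201), short of the threshold. The NCD value passed with DESeq2 (log2 0.88, adjusted p = 3.42e-06), with only the compared groups in the fit, or with Bacon pool 1, HFD pool 2 or HFD pool 6 left out. The HFD value passed with DESeq2 (log2 0.85, adjusted p = 1.41e-05) or with Bacon pool 1 or HFD pool 6 left out. The Bacon call was lost with only the compared groups in the fit (log2 1.18, adjusted p = 0.00195).

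Both libraries contributed to the S100a5 ratio. In the pulldown, S100a5 stood at 2744, 2666, 2828, 3544 and 2900 CPM without odour, at 3504 to 4709 CPM with NCD odour (median 4358), at 2384, 4613, 4223, 3491 and 4172 CPM with Bacon odour, and at 3551, 3969, 3786, 3514 and 3269 CPM with HFD odour. All groups overlapped the No Odour group. In the input it stood at 1565, 1658, 1598, 2950 and 1609 CPM without odour, 1292 to 1594 CPM with NCD odour (median 1390), 971, 1043, 908, 1070 and 1128 CPM with Bacon odour, and 1177, 913, 1241, 1373 and 1604 CPM with HFD odour. No Odour pool 4, at 2950 CPM, was far above its group, and the Bacon pools were all below the No Odour and the NCD pools. In the input S100a5 fell by 0.87 on the log2 scale with Bacon odour (SE 0.15, adjusted p = 0.000165). With NCD (-0.40, adjusted p = 0.0480) and HFD odour (-0.57, adjusted p = 0.0110) it did not pass. The pulldown alone changed by 0.52, 0.36 and 0.30 on the log2 scale for NCD, Bacon and HFD (adjusted p = 0.00222, 0.0343 and 0.0744), none past the threshold. Without Bacon pool 1 and No Odour pool 4, the ratio changed by 0.78, 1.20 and 0.75 (adjusted p = 0.00168, 2.78e-05 and 0.00235) and the input by -0.18, -0.63 and -0.35.

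**Figure D2:**
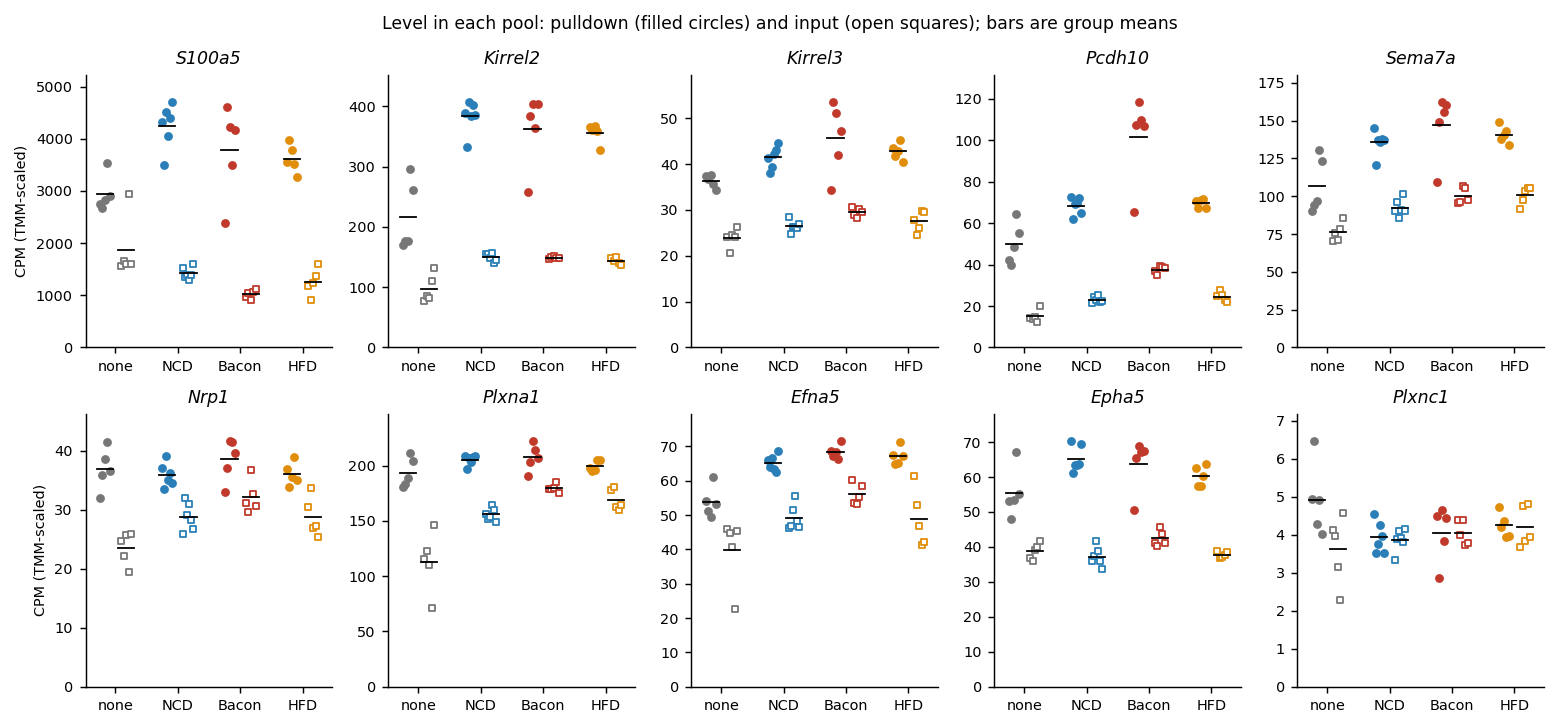
Level of each gene in each pool in CPM, for pulldown (filled circles) and input (open squares) libraries in the 4 odour groups, with bars at the group means. Pcdh10 input is highest in the 5 Bacon pools (34.9 to 39.5 CPM), and S100a5 input is lowest there (908 to 1128 CPM).

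Kirrel2 rose with every odour, and in both kinds of library. In the input it stood at 76.5, 85.7, 82.4, 110.3 and 131 CPM without odour, at 140.4 to 156 CPM with NCD odour (median 151), at 147, 150.3, 151, 148 and 148 CPM with Bacon odour, and at 148, 143, 149, 141 and 137 CPM with HFD odour. The 16 odour pools covered a narrow range and all lay above the 5 No Odour pools, of which pools 4 and 6 were the highest. The increase was 1.54-fold with NCD (log2 0.62, SE 0.09, adjusted p = 0.000166), 1.53-fold with Bacon (log2 0.61, SE 0.10, adjusted p = 5.78e-05) and 1.48-fold with HFD odour (log2 0.56, SE 0.10, adjusted p = 0.000614). In the pulldown it stood at 170.4, 177, 176, 296 and 261 CPM without odour, at 333 to 407 CPM with NCD odour (median 388), at 258, 384, 403, 364 and 404 CPM with Bacon odour, and at 365, 359.8, 367, 358 and 328 CPM with HFD odour. Only Bacon pool 1, at 258 CPM, reached into the No Odour range. In the pulldown alone the log2 changes were 0.82, 0.75 and 0.72 (adjusted p = 0.000119, 0.000383 and 0.000496). The ratio of pulldown to input, 2.22 ± 0.274 without odour (SD, n = 5), 2.57 ± 0.251 with NCD (n = 6), 2.43 ± 0.394 with Bacon (n = 5) and 2.48 ± 0.0594 with HFD odour (n = 5), did not pass (log2 0.21, 0.13 and 0.17, adjusted p = 0.173, 0.452 and 0.310), nor did it without No Odour pool 4 and Bacon pool 1 (log2 0.28, 0.31 and 0.24, adjusted p = 0.00835, 0.00398 and 0.0267). The input call was lost for NCD without No Odour pool 2 or 3, and for HFD without No Odour pool 1, 2 or 3, HFD pool 1, 2, 3 or 5, or Bacon pool 2, 4 or 5, with log2 changes of 0.49 to 0.58.

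Kirrel3 changed less. Its input levels were 24.2, 20.7, 24.5, 24.2 and 26.2 CPM without odour, 24.7 to 28.4 CPM with NCD odour (median 26.3), 30.6, 29.0, 28.2, 30.3 and 29.5 CPM with Bacon odour, and 27.7, 24.6, 26.0, 29.8 and 29.5 CPM with HFD odour. Only the Bacon pools were clear of the No Odour pools. It rose 1.23-fold with Bacon odour (log2 0.30, SE 0.07, adjusted p = 0.000816). That call was lost when any of 15 of the 21 pools was left out, at log2 changes of 0.24 to 0.32. The log2 change was 0.14 with NCD and 0.20 with HFD odour, neither past the threshold, and the ratio changed by 0.05, 0.01 and 0.04. Without No Odour pool 4 and Bacon pool 1 the ratio changed by 0.04, 0.11 and 0.03, and the input with Bacon odour by 0.29 (adjusted p = 0.00310). In the pulldown alone, Kirrel3 changed by 0.18, 0.33 and 0.23 (adjusted p = 0.0931, 0.00375 and 0.0316). Under TMM scaling its changes had the sign of those of Kirrel2 on each measure. Of the annotated genes, 4 overlap the span of Kirrel3, among them Kirrel3os on the opposite strand, but 0% of the words of 31 bases in its transcripts occur in those of another gene.

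Pcdh10 had the largest input change of the 10 genes, and it was the only one past the threshold between odours. Its input levels were 14.1, 13.8, 14.9, 12.5 and 20.1 CPM without odour, 21.5 to 25.3 CPM with NCD odour (median 22.7), 36.7, 34.9, 39.5, 38.7 and 38.2 CPM with Bacon odour, and 25.01, 27.5, 25.5, 23.0 and 21.7 CPM with HFD odour. The Bacon pools were above all other pools, and the NCD and HFD pools lay between them and the No Odour pools without reaching either. Pcdh10 rose 2.49-fold with Bacon odour (log2 1.32, SE 0.09, adjusted p = 4.78e-10), 1.53-fold with NCD odour (log2 0.61, SE 0.09, adjusted p = 0.000132) and 1.62-fold with HFD odour (log2 0.70, SE 0.09, adjusted p = 5.35e-05). In the pulldown it stood at 42.3, 39.5, 48.3, 64.2 and 55.0 CPM without odour, at 61.8 to 72.8 CPM with NCD odour (median 69.4), at 65.3, 107, 119, 110.0 and 107 CPM with Bacon odour, and at 70.7, 67.2, 71.3, 71.4 and 67.3 CPM with HFD odour. In the pulldown alone the Bacon change was 1.03 on the log2 scale (SE 0.12, adjusted p = 4.58e-06), and the NCD (0.44, adjusted p = 0.0100) and HFD changes (0.48, adjusted p = 0.00728) did not pass. The ratio changed by -0.15, -0.31 and -0.21 (adjusted p = 0.546, 0.144 and 0.374). Without No Odour pool 4 and Bacon pool 1 it changed by 0.01, -0.01 and -0.05. An antisense gene, 1700027H10Rik, overlaps Pcdh10 on the other strand, and 0.938% of the words of 31 bases in Pcdh10 transcripts also occur in other genes, chiefly that one.

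Between odours, in the input, Pcdh10 was 1.63-fold higher with Bacon than with NCD odour (log2 0.70, SE 0.09, adjusted p = 2.47e-05), with 0.108% of all genes past the threshold. With HFD odour it was lower than with Bacon odour by 0.62 on the log2 scale (SE 0.09, adjusted p = 0.000435, 0.0831% of genes). HFD and NCD odour differed by 0.09 (SE 0.09, adjusted p = 0.946). The 1 call for HFD over Bacon was lost without any of Bacon pools 1, 3, 4 or 5 or HFD pools 1, 3, 5 or 6, at log2 differences of -0.63 to -0.57, and the call for Bacon over NCD held with any single pool left out. With only the 2 compared groups in the fit (3.37% of genes), Plxna1 (0.21, adjusted p = 0.000926) and S100a5 (-0.47, adjusted p = 1.69e-05) also passed for Bacon over NCD. All Bacon pools lay above all NCD pools for Pcdh10 and Plxna1 (4.44% of genes) and below them for S100a5 (5.69%), and all HFD pools lay below all Bacon pools for Pcdh10 and Epha5 (2.97%). For HFD over NCD in the input, 0 of the 10 genes passed (0.0538% of genes) in edgeR or DESeq2, and 0 were at an unadjusted p under 0.05 in edgeR. These 3 input comparisons were added after the values of Pcdh10 had been seen. In the pulldown ratio, 0 of the 10 genes passed between any pair of odours in edgeR or DESeq2, with 0.0378% of genes past the threshold for HFD over Bacon, 0.0236% for HFD over NCD and 0.00945% for Bacon over NCD. At an unadjusted p under 0.05, 0, 0 and 1 of the 10 genes were reached, the last being Epha5 for Bacon over NCD at -0.23 (SE 0.09). S100a5 differed by -0.31 (SE 0.17) for HFD over Bacon and by 0.28 (SE 0.16) for Bacon over NCD.

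Sema7a rose in the input with Bacon and HFD odour, and Plxnc1, which encodes its receptor, passed in no comparison. Sema7a input levels were 70.6, 75.4, 71.1, 78.2 and 85.8 CPM without odour, 85.4 to 101 CPM with NCD odour (median 90.5), 95.6, 96.2, 106, 105 and 97.8 CPM with Bacon odour, and 91.4, 97.2, 104, 105 and 105 CPM with HFD odour. The Bacon and HFD pools all exceeded the No Odour pools, and 1 NCD pool, at 85.4 CPM, did not. The increase was 1.32-fold with Bacon (log2 0.40, SE 0.06, adjusted p = 6.82e-05) and 1.32-fold with HFD odour (log2 0.40, SE 0.06, adjusted p = 0.000340), while 1.21-fold with NCD odour (log2 0.28, SE 0.06, adjusted p = 0.00335) did not pass. The HFD call was lost without No Odour pool 1, 2 or 3 or HFD pool 3 or 5, and the NCD value passed without No Odour pool 6 (log2 0.32). The Sema7a ratio stayed within 1.14 and 1.67 in all 21 pools, with log2 changes of 0.08, 0.06 and 0.01, and of 0.14, 0.22 and 0.07 without No Odour pool 4 and Bacon pool 1. Plxnc1 was the scarcest of the 10 genes, at 2.27 to 4.81 CPM in the input and 61 to 161 reads per input library, and its ratio changed by -0.43, -0.46 and -0.43 (SE 0.20, 0.20 and 0.20, unadjusted p = 0.0371, 0.0312 and 0.0433, adjusted p = 0.148, 0.106 and 0.154, edgeR). Without No Odour pool 4 and Bacon pool 1 it changed by -0.28, -0.32 and -0.28.

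Nrp1 and Plxna1, the subunits of a semaphorin receptor, both had log2 ratio changes below 0 with every odour, and neither passed. The Plxna1 ratios were 1.57, 1.49, 1.71, 2.98 and 1.40 without odour, 1.24 to 1.40 with NCD odour (median 1.32), 1.07, 1.14, 1.24, 1.16 and 1.18 with Bacon odour, and 1.11, 1.08, 1.20, 1.29 and 1.25 with HFD odour. All odour pools lay below all No Odour pools, NCD only by a small margin, a pattern that 4.46% of all genes showed for NCD, 6.2% for Bacon and 5.46% for HFD. The log2 changes were -0.41, -0.60 and -0.56 (SE 0.12, 0.13 and 0.13, adjusted p = 0.0303, 0.00174 and 0.00491). Input levels of Plxna1 were 115, 123, 110.4, 71.1 and 146 CPM without odour, 149 to 165 CPM with NCD odour (median 155), 179, 179, 179.6, 185 and 176 CPM with Bacon odour, and 178, 181, 163, 159.7 and 164 CPM with HFD odour. It rose 1.59-fold with Bacon odour (log2 0.67, SE 0.11, adjusted p = 7.25e-05), with 1.38-fold for NCD (adjusted p = 0.00365) and 1.49-fold for HFD (adjusted p = 0.00118) short of the threshold. DESeq2 called the ratio lower with Bacon (-0.59, adjusted p = 0.000163) and HFD odour (-0.56, adjusted p = 0.000608). No Odour pool 4, at 71.1 CPM, was the lowest input library. Without it and Bacon pool 1 the ratio changed by -0.22, -0.38 and -0.38 (adjusted p = 0.0297, 0.000389 and 0.000519), which passed for Bacon and HFD, and the input by 0.33, 0.54 and 0.45, which passed for the same odours. The Bacon ratio also passed without No Odour pool 6 (log2 -0.68), and the input values for NCD and HFD passed without No Odour pool 4 or 6. In the pulldown, Plxna1 spanned 180.5 to 222 CPM over all pools and its log2 changes were 0.07, 0.10 and 0.04. Of the words of 31 bases in the Plxna1 transcripts, 8.57% also occur in other genes, chiefly its antisense neighbour Gm26811.

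The Nrp1 ratios were 1.30, 1.63, 1.50, 2.13 and 1.41 without odour, 1.04 to 1.43 with NCD odour (median 1.29), 1.06, 1.26, 1.13, 1.27 and 1.29 with Bacon odour, and 1.21, 1.00, 1.32, 1.43 and 1.38 with HFD odour. The Bacon pools lay below the No Odour pools. The log2 changes were -0.33, -0.38 and -0.31 (adjusted p = 0.0581, 0.0210 and 0.0727), and without No Odour pool 4 and Bacon pool 1 they were -0.22, -0.23 and -0.21. In the input Nrp1 rose 1.36-fold with Bacon odour, from 23.6 ± 2.78 to 32.1 ± 2.84 CPM (SD, n = 5 each; log2 0.44, SE 0.09, adjusted p = 0.000356). This call was lost without No Odour pool 2, Bacon pool 3 or Bacon pool 4, at log2 changes of 0.39 to 0.44, and without both No Odour pool 4 and Bacon pool 1 (0.40, adjusted p = 0.00121). The pulldown changed by -0.05, 0.07 and -0.04.

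Efna5, encoding a repulsive ligand, rose in the pulldown with each odour. It stood at 54.0, 51.3, 49.4, 61.1 and 53.2 CPM in the pulldown without odour, at 62.6 to 68.8 CPM with NCD odour (median 65.1), at 68.5, 67.1, 68.3, 66.3 and 71.6 CPM with Bacon odour, and at 67.6, 64.8, 65.2, 71.2 and 67.4 CPM with HFD odour. All 16 odour pools lay above the No Odour pools, as they did for 6.05% of all genes with NCD, 3.34% with Bacon and 8.83% with HFD odour. The increases were 0.27, 0.35 and 0.32 on the log2 scale (SE 0.05, 0.05 and 0.05, adjusted p = 0.000455, 3.25e-05 and 8.91e-05). In the input it stood at 45.9, 44.7, 40.7, 22.7 and 45.4 CPM without odour and at 41.3 to 61.5 CPM over the HFD pools, and its changes of 0.30, 0.49 and 0.29 did not pass (adjusted p = 0.110, 0.00736 and 0.135). The ratio of No Odour pool 4 was 2.69, against 1.15 to 1.22 in the other No Odour pools. Relative to the input, the log2 changes of Efna5 were -0.05, -0.18 and 0.01 with all pools and 0.18, 0.07 and 0.23 without that pool and Bacon pool 1, and none passed.

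Epha5, encoding a receptor of Efna5, did not pass in any odour comparison. Its input level stayed between 33.6 and 45.7 CPM in all 21 pools, with log2 changes of -0.06, 0.13 and -0.04. Its ratio was 1.43 ± 0.145 without odour (SD, n = 5), 1.76 ± 0.213 with NCD (n = 6), 1.51 ± 0.164 with Bacon (n = 5) and 1.59 ± 0.0439 with HFD odour (n = 5), and changed by 0.30, 0.07 and 0.16 (adjusted p = 0.0280, 0.639 and 0.252). Without No Odour pool 4 and Bacon pool 1 the changes were 0.36, 0.20 and 0.22 (adjusted p = 0.00241, 0.0760 and 0.0549).

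**Figure D3:**
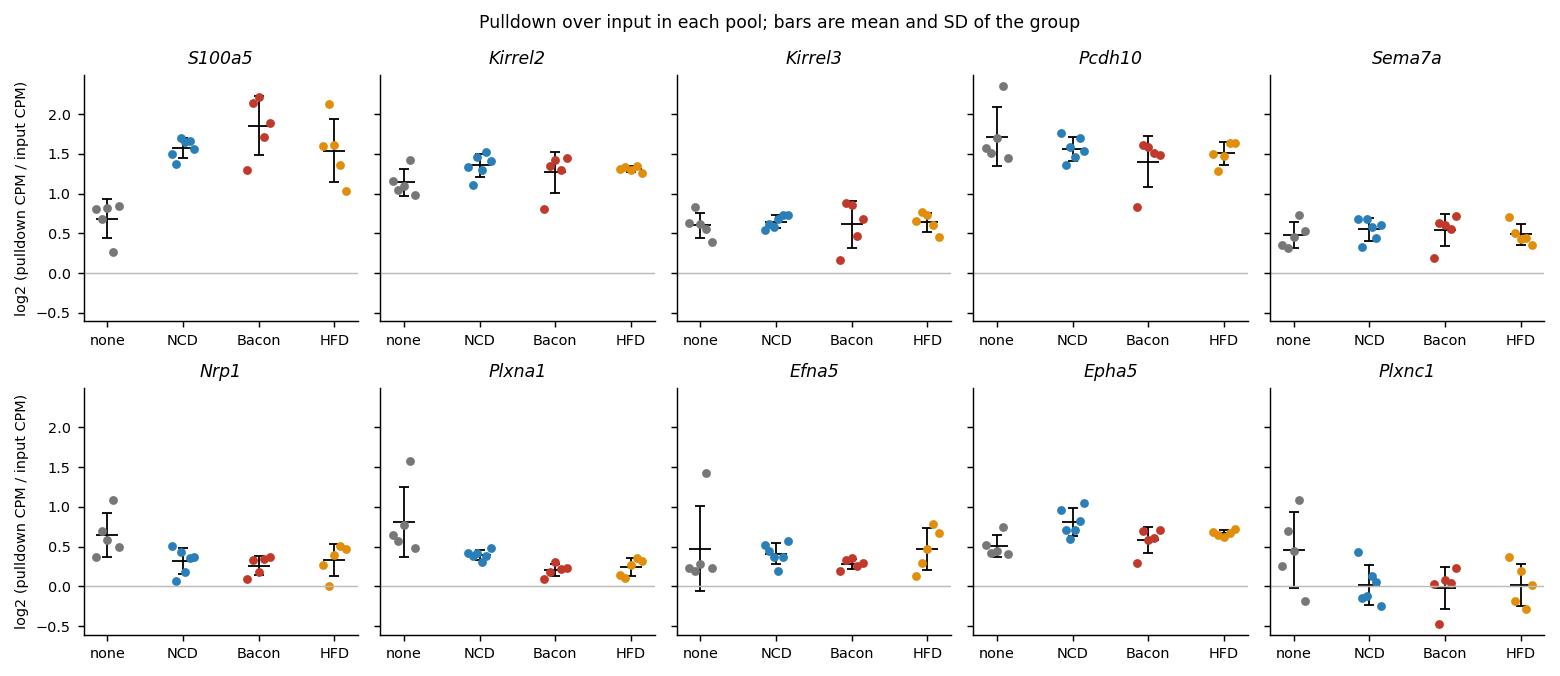
Log2 of pulldown over input CPM for each gene in each pool of the 4 odour groups, with mean and SD of the group. S100a5 is higher in every odour pool than in every No Odour pool, and the outlying No Odour point of Plxna1, Efna5 and Pcdh10 is pool 4.

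Several of these values moved with the length of the transcript. S100a5 has the shortest of the 10, with a longest coding transcript of 431 bases, and Plxna1 (9034 bases), Pcdh10 (8234), Epha5 (7328) and Plxnc1 (7302) the longest. Over all genes with Bacon odour, the median log2 change in the input was -0.34 for the 2096 genes with transcripts under 1 kb and 0.27 for the 3483 genes over 5 kb. In the pulldown ratio these medians were 0.40 and -0.27, over 2366 and 3503 genes. The NCD and HFD odours gave -0.29 and 0.17, and -0.24 and 0.18, in the input. After a smooth trend on transcript length and GC content was removed from each library, an alternative added after the data had been seen, the S100a5 ratio changed by 0.46, 0.54 and 0.42 (adjusted p = 0.00597, 0.00134 and 0.0111) and its input by 0.02, -0.25 and -0.19, and 0 of these 6 values passed. The Plxna1 input change was smaller than before, at 0.28, 0.35 and 0.36 against 0.46, 0.67 and 0.58 (adjusted p = 0.000478, 3.01e-05 and 4.16e-05), now past the threshold with each odour, while its ratio changed by -0.09, -0.17 and -0.18. Pcdh10 rose in the input by 0.40, 1.00 and 0.49 (adjusted p = 0.000186, 3.60e-11 and 2.93e-05) and was higher with Bacon than with NCD odour by 0.59 (adjusted p = 6.32e-07). Kirrel2 input changed by 0.60, 0.59 and 0.53 (adjusted p = 0.000621, 0.000314 and 0.00180). With the trend removed, 0 of the 10 genes passed in the ratio with each odour (0.642%, 1.68% and 1.03% of all genes), and 3, 5 and 3 in the input (1.55%, 7.23% and 1.76%). At an unadjusted p under 0.05, 4, 5 and 5 were reached in the ratio, with the share of all genes not taken.

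**Figure D4:**
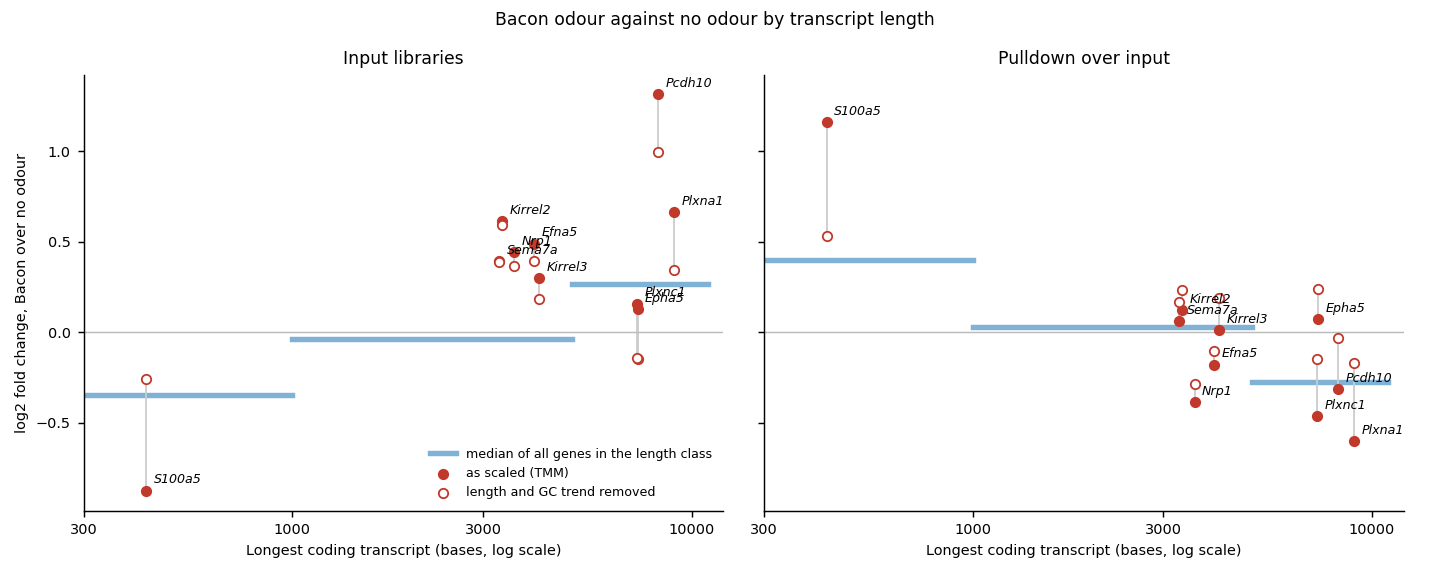
Log2 change with Bacon odour against the length of the longest coding transcript (log axis) in the input and in the pulldown ratio, as scaled (filled) and after removal of the length and GC trend (open); blue bars are medians of all genes in 3 length classes. S100a5, the shortest, moves from -0.87 to -0.25 in the input and from 1.16 to 0.54 in the ratio, and Pcdh10 stays the highest in the input at 1.00.

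Other covariates also moved with exposure. With the ribosomal RNA share of each library as a term in the fit, a share that itself differed between exposed and unexposed pools, 0 of the 10 genes passed in any comparison with no odour, in the ratio (0.0992%, 0.109% and 0.0709% of all genes) or the input (0.0342%, 0.0244% and 0.0196%). At an unadjusted p under 0.05, 3, 2 and 2 were reached in the ratio and 2, 3 and 4 in the input, with the share of all genes not taken. Between odours, Pcdh10 input passed in this fit for Bacon over NCD (0.58, adjusted p = 3.12e-05) and HFD over Bacon (-0.50, adjusted p = 0.000721). The log2 change of Pcdh10 input with Bacon odour over no odour was then 0.80 (adjusted p = 0.0150), that of Kirrel2 0.36 (adjusted p = 0.780) and that of S100a5 -0.03 (adjusted p = 0.991). Scaling on the mature sensory neuron markers shifted the median of all genes in the ratio by -0.27, -0.39 and -0.22 for NCD, Bacon and HFD. On that scale 0, 4 and 1 of the 10 genes passed in the ratio (4.12%, 17.7% and 3.04% of all genes) and 1, 5 and 1 in the input (0.528%, 5.66% and 0.235%). The ratios of Nrp1 (-0.78), Plxna1 (-0.995) and Pcdh10 (-0.71) with Bacon odour passed as lower (17.3% of all genes) and that of S100a5 (0.77) as higher (0.406%), and Plxna1 (-0.78) passed as lower with HFD (2.7%). The shift itself takes small increases below 0, as it did for the ratios of Kirrel2, Kirrel3 and Sema7a. The part of these covariates in the results was not tested beyond these fits.

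Genes related to the 10 were read from lists of the same pathways. Of all genes, 5.41% passed as higher and 8.34% as lower in the input with Bacon odour. With NCD and HFD odour, 0.998% and 0.963% passed there in either direction. In the ratio, 0.524%, 3.78% and 1.22% of all genes passed with NCD, Bacon and HFD odour. Among 26 tested semaphorin, plexin and neuropilin genes outside the 10, 4 rose in the input with Bacon odour, namely Sema6a (log2 0.56), Plxnb2 (0.47), Plxna2 (0.39) and Plxna4 (0.82), the last chosen for naming after its value was seen, and 0 fell. Sema6a also rose in the input with HFD odour (0.51), and 0 of the 26 passed with NCD odour. In the ratio with Bacon odour, 2 of the 26 fell, Plxnd1 (-0.91) and Plxnb2 (-0.63), and Plxnd1, encoding a semaphorin 3E receptor, also fell with NCD (-0.75) and HFD odour (-0.82). Their median log2 change with Bacon odour was 0.19 in the input and -0.26 in the ratio, beside 0.27 and -0.27 for all genes with transcripts over 5 kb. Among 18 ephrin and Eph genes, Efna3 fell in the input with NCD (-0.32) and Bacon odour (-0.38) and rose in the ratio with Bacon (0.48), and Epha7 rose in the input with NCD (0.54) and Bacon odour (0.58). Of the Slit, Robo and netrin genes, Robo1, a receptor for Slit proteins, rose in the input with Bacon (0.58) and HFD odour (0.48) and fell in the ratio with Bacon (-0.53), and Slit1 rose in the input with Bacon (0.61). Of the non-clustered protocadherins other than Pcdh10, Pcdh1 (0.40), Pcdh7 (0.38) and Pcdh17 (0.39) rose in the input with Bacon odour, 3 of 8 tested, and 0 of 8 passed with NCD or HFD odour. Of 17 other adhesion genes of axons, Cntn4 (0.52), Tenm2 (0.62), Tenm3 (0.42) and Tenm4 (0.64) rose in the input with Bacon odour.

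Of 8 immediate early genes, transcription factors and effectors induced soon after neuronal firing, 4 rose in the input with NCD odour, 5 with Bacon and 3 with HFD odour. Beside them, 0.998%, 13.7% and 0.963% of all genes passed in the input in either direction, and 0.524%, 3.78% and 1.22% in the ratio. The median log2 change of the 8 genes in the input was 0.79, 0.92 and 0.80. Fos rose by 1.55, 1.63 and 1.45 on the log2 scale, Egr1 by 0.87, 0.95 and 0.77, and Nr4a1 by 1.26, 1.46 and 1.10. In the ratio, 0 of the 8 rose with any odour, and Arc, named after its values were seen, fell with Bacon (-0.97) and HFD odour (-1.12). Arc was scarce, at 2.46 CPM in the No Odour input, and its input level rose with Bacon odour (0.76). Of 4 other genes whose level follows receptor activity, Lrrc3b rose in the input with NCD (0.80), Bacon (0.73) and HFD odour (0.81) and in the ratio with Bacon (0.57), and Calb2, encoding the calcium-binding protein calretinin, fell in the input with Bacon odour (-0.78). Of 10 genes of the receptor signal, only Cngb1, a subunit of the olfactory cyclic nucleotide-gated channel, passed, rising in the input with Bacon odour (0.38).

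Ligand and receptor, or partner, pairs among the 10 genes were compared across pools, as log2 ratios minus the mean of the odour group, over 21 pools with 4 pairs tested. The genes of a pair come from the same libraries, so shared properties of a library enter both. Nrp1 and Plxna1 moved together (Pearson r = 0.72, permutation p = 0.00307, adjusted p = 0.00614, by permutation; Spearman rho = 0.72, permutation p = 0.00105, adjusted p = 0.00420, by permutation), and r was 0.55 without the 2 pools farthest from the median of Nrp1. Efna5 and Epha5 also did (r = 0.56, permutation p = 0.00225, adjusted p = 0.00614, by permutation; rho = 0.54, permutation p = 0.00867, adjusted p = 0.0173, by permutation), with r = 0.47 without the 2 farthest pools. Kirrel2 and Kirrel3 (r = 0.57, permutation p = 0.0562, adjusted p = 0.0749, by permutation; rho = 0.37, permutation p = 0.131, adjusted p = 0.175, by permutation; r = 0.39 without 2 pools; adjusted p 0.0181 for r without No Odour pool 2 and 0.0381 without No Odour pool 4, by permutation) and Sema7a and Plxnc1 (r = 0.28, permutation p = 0.261; rho = 0.31, permutation p = 0.211; r = 0.34 without 2 pools) did not pass 0.05.

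For the 7 genes that passed with any odour, the 3 genes closest in pattern were found by the mean absolute difference between centred log2 ratios over the 21 pools. S100a5 was closest to Tmsb4x, encoding thymosin beta 4, at 0.0604, to Tstd1 at 0.0640 and to Efcab10 at 0.0684, against a range of 1.95 for S100a5 itself. Pcdh10 was closest to Rnf157 at 0.0788, to Pcdh19, another non-clustered protocadherin, at 0.0797 and to Spred2 at 0.0826. Plxna1 was closest to Zfp609 (0.0528), Dab2ip (0.0538) and Taok2 (0.0574), and Kirrel2 to Trim45 (0.0511), Nsmf (0.0597) and Syngr1 (0.0672). Nrp1 was closest to Cep128, Rab6b and Smc6, Kirrel3 to Rps3, Cdk16 and Chtf8, and Sema7a to Pknox1, Prkaca and Rarg, all between 0.0614 and 0.0751.

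Marker genes of other cells shifted with exposure as well. In the pulldown, summed levels with odour over no odour were 0.587 for 5 macrophage markers (adjusted p = 0.000541, exact permutation test), 0.726 for 5 connective tissue markers (adjusted p = 0.00201, exact permutation test), 0.771 for 5 neutrophil markers (adjusted p = 0.00637, exact permutation test) and 0.831 for 5 markers of neurogenic progenitors (adjusted p = 0.000541, exact permutation test). Immature sensory neuron markers, whose axons also carry several of the 10 molecules, were at 0.935 in the pulldown (adjusted p = 0.00843, exact permutation test) and at 1.12 in the input (adjusted p = 0.00201, exact permutation test). In the input, where more of the 10 genes passed, the sums were 0.765 for macrophages (adjusted p = 0.00108), 0.769 for connective tissue (adjusted p = 0.00189), 0.930 for neutrophils (adjusted p = 0.720), 1.16 for neurogenic progenitors (adjusted p = 0.00365) and 1.11 for supporting cells (adjusted p = 0.0429), all by the exact permutation test. Horizontal basal cells were at 0.914 (adjusted p = 0.00904) and ensheathing glia at 0.902 (adjusted p = 0.0271) in the input. Endothelium was at 0.861 in the pulldown (adjusted p = 0.0280), again by the exact permutation test. The part of cell composition in the changes of the 10 genes was not tested.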

How the data were processed

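Each of the 21 pools gave a pulldown and an input library, 42 in all. The expected counts were made and deposited by the authors with Salmon in an nf-core pipeline on mouse genome build GRCm38 (GENCODE M21 symbols), and the paired-end reads came from Nextera XT libraries. The authors' own comparisons used DESeq2 1.26. Here the deposited expected counts (30.9% of them not whole numbers) were rounded, and edgeR 4.0.16 in R 4.3.3 was fitted by quasi-likelihood to all genes with TMM scaling, after its filter for low counts at a minimum of 10 reads, leaving 21168 genes (20451 in the input fit). The model held a term for each pool, library type and odour within type, and the input and pulldown were also fitted alone. Genes with an adjusted p under 0.001, by Benjamini-Hochberg over all genes tested, passed. A difference is log2 with its SE. Single values across pools were tested by permutation (scipy 1.17.1). Total reads per library, and thus the precision, are given in the report. The labels only number the pools, and the study counts them as its replicates. They were therefore taken as separate sets of mice, and p-values measure the spread between pools. The pulldown and input of a pool are paired by label. The correlation of a pulldown with its own input had a median of 0.014, against -0.004 with other inputs. The values themselves thus gave little sign of the pairing, which rests on the labels. No columns of the table were left unused. Of all 90 pairs of libraries within a group, none agreed within sampling noise (chi-square per degree of freedom at least 3.33). In data simulated for Bacon over no odour in the ratio (21168 genes), 66 of 100 genes changed 2-fold and 95 of 100 changed 4-fold were recovered. The simulated counts had a single fixed spread for all genes, and no outlying pools, ribosomal RNA difference or length trend. Recovery under the conditions of the real data was therefore not measured.

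All 10 genes were named. Other pathway genes were named at an adjusted p under 0.001, at most 4 a list by smallest adjusted p, and the 3 genes most like each member that passed were named by the difference in log2 ratio. The members, lists and tests were chosen with earlier results of these data known. Alternatives covered DESeq2 1.42.0, other scalings and filters, covariates, subsets of the pools and removal of the trend on transcript length and GC content.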

Additional observations from a re-analysis of the deposited data

Results flagged for a closer look

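Of 120 groups of values (10 genes, 3 measures, 4 odour groups), 17 held a pool that lay far from the other pools of its group by Dixon's test at 95%, where chance alone flags about 1 in 20 groups. No Odour pool 4 accounted for 7 of them and Bacon pool 1 for 6.

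In No Odour pool 4, S100a5 stood at 3544 CPM in the pulldown (median of the others 2786) and 2950 CPM in the input (1604), and its log2 ratio was 0.26 (0.82). Efna5 input was 22.7 CPM there (45.1) and its log2 ratio 1.43 (0.23). The log2 ratio of Plxna1 was 1.57 (0.61) and that of Pcdh10 2.36 (1.54) in the same pool. In Bacon pool 1, pulldown levels were 258 CPM for Kirrel2 (394), 65.3 CPM for Pcdh10 (108.6), 109 CPM for Sema7a (158) and 50.6 CPM for Epha5 (67.2), and the log2 ratios of Kirrel2 and Pcdh10 were 0.81 (1.39) and 0.83 (1.54). The pulldown of Bacon pool 1 also held 2916 CPM of supporting cell markers, against a Bacon median of 1330 CPM. The part of such cells in these values was not tested.

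In NCD pool 2, pulldown levels of Kirrel2 and Sema7a were 333 CPM (389) and 121 CPM (137). Kirrel2 in the pulldown of HFD pool 6 was 328 CPM (362), and the log2 ratio of Plxnc1 in Bacon pool 2 was -0.47 (0.06).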

How the results depend on the processing

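Counts here are of the 10 genes past the threshold, with NCD, Bacon and HFD odour over no odour in that order, against 0, 1 and 0 in the ratio and 2, 7 and 3 in the input. The pulldown libraries alone, a different measure that leaves out the input, gave 2, 3 and 2 (4.11%, 4.22% and 5.0% of all genes). In the ratio, DESeq2 gave 1, 2 and 2 (3.52%, 10.5% and 5.21% of all genes), DESeq2 on pulldown divided by input 1, 2 and 2 (3.82%, 10.7% and 6.11%), and an adjusted p under 0.05 3, 3 and 2 (13.1%, 22.5% and 15.7%). With only the compared groups fitted, the NCD count was 1 (0.918%) and the Bacon count 0 (0.127%). Scaling on the sensory neuron markers gave 4 with Bacon (17.7%) and 1 with HFD (3.04%). With Bacon, the ribosomal RNA covariate and the removed length and GC trend each gave 0, and without Bacon pool 1 and No Odour pool 4 the counts were 2 with Bacon and 1 with HFD. The trend removal and the omission of both pools were chosen after seeing the data. In the input, DESeq2 gave 4 with NCD (6.68%), the neuron scaling 1 with NCD (0.528%) and 1 with HFD (0.235%), the ribosomal RNA covariate 0, 0 and 0, only the compared groups 0, 1 and 0 (0.149%, 3.86% and 0.0309%), and an adjusted p under 0.05 6 with NCD and 7 with HFD. For Bacon over NCD in the input, only the compared groups gave 3 against 1. The cause of these shifts was not tested.

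The replicate numbers did not pair pools across odours: the correlation of 54 same-numbered pairs ran from -0.35 to 0.16, with 5 over 0.1. With the replicate number as a block, the counts were 5 against 8 for pulldown over input without odour, 1 with HFD odour in the input (0.186%) and 0 for HFD over Bacon in the input (0.0587%). With no replicate block, that is without the term for the pool, the Bacon ratio count was 2 (4.38%).

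With each pool left out in turn, the counts ran from 0 to 1 (NCD), 1 to 2 (Bacon) and 0 to 1 (HFD) in the ratio, from 1 to 4, 5 to 7 and 1 to 4 in the input, and from 0 to 1 for HFD over Bacon in the input. They stayed at 8 for pulldown over input, 1 for Bacon over NCD in the input, and 0 for HFD over NCD in the input and for every pair of odours in the ratio. The correlations ran from 0.38 to 0.61 (Efna5 and Epha5), 0.16 to 0.67 (Kirrel2 and Kirrel3), 0.54 to 0.78 (Nrp1 and Plxna1) and 0.07 to 0.39 (Sema7a and Plxnc1). The NCD input count of 4 came without No Odour pool 6. The shares of all genes past the threshold in these fits are not given, so the counts cannot be set against a background.

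For 4 values of single genes the sign turned and either value passed the threshold. In the pulldown alone, a different measure from the ratio, Efna5 changed by 0.27 (NCD) and 0.35 (Bacon) and Pcdh10 by 1.03 (Bacon). The corresponding ratios changed in the negative direction. Nrp1 input with Bacon was -0.024 under the ribosomal RNA covariate. Of the other alternatives for single genes, 1409 values kept their side of the threshold, of which 1290 also kept their sign and 119, none past the threshold, did not. With the same sign, 32 newly passed and 45 no longer passed. With single pools left out, 78 of 2675 values that kept their side changed sign. On plain library totals instead of TMM, marker sums with odour over no odour were 1.22 for mature neurons (input), 0.995 for immature neurons (pulldown), 1.09 for horizontal basal cells (input), 1.23 and 1.08 for ensheathing glia (pulldown and input), 0.917 and 1.13 for endothelium (pulldown and input) and 1.19 for red cells (pulldown). Under TMM, in the same order, they were 1.02, 0.935, 0.914, 1.14 and 0.902, 0.861 and 0.954, and 1.11. The input sums of neutrophils were 0.930 under TMM and 1.12 on plain totals, and those of red cells 0.966 and 1.16. The input sums of horizontal basal cells, ensheathing glia, endothelium, neutrophils and red cells thus changed direction with the scaling.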
